A study of Mus musculus with 8 samples.

Results

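Mesp1 and Mesp2 are neighbouring genes on mouse chromosome 7 that encode basic helix-loop-helix transcription factors. Their accessible chromatin was followed in 4 groups of sorted embryoid body cells. The regions were those of the deposited ATAC-seq table whose midpoint lies nearer to the annotated span of Mesp1 or Mesp2 than to that of any other protein-coding gene, inside it or within 100 kb. The rule gave 6 of 168842 regions, 4 for Mesp1 and 2 for Mesp2. All 6 are 401 bp wide and all passed the filter on low values, a mean of at least 10 normalized reads over the 8 libraries.

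ATAC-seq measures how often the Tn5 transposase inserts adapters into a stretch of DNA, which is high where chromatin is open. The cells came from embryoid bodies, aggregates of differentiating mouse embryonic stem cells, at day 4, with 2 libraries per group. FLK1, the VEGF receptor encoded by Kdr, and PDGFRalpha, a receptor of early mesoderm encoded by Pdgfra, were the sort markers. From the wild-type A2lox.Cre line came WT DP (PDGFRalpha+FLK1+) and WT SP (PDGFRalpha-FLK1+). KO DP came from a line in which Etv2 is knocked out, sorted as PDGFRalpha+FLK1+. OE SP came from the iETV2 line, sorted as PDGFRalpha-FLK1+, which received doxycycline at 2 µg/ml from day 2.5 to overexpress Etv2, an ETS factor required for vessel and blood formation. Line, genotype and doxycycline go together, so a difference between lines and an effect of Etv2 cannot be told apart in the comparisons of KO DP and OE SP. Nothing in the labels ties the 2 libraries of a group to separate cultures, so the spread behind each p-value may be technical only.

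In the gastrulating embryo, Mesp1 is switched on briefly in mesoderm leaving the primitive streak and marks the progenitors of the heart and of much of the cranial vasculature. Mesp2 acts in the anterior presomitic mesoderm, where it sets the boundary of the forming somite. Mouse embryos that lack both genes fail to form mesoderm lateral to the axis. The T-box factors Eomes and Tbx6 act upstream of Mesp1 and Mesp2 respectively, Tbx6 together with Notch signalling.

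The genes lie head to head and are transcribed away from each other. On build mm10, Mesp1 covers 79792241 to 79793590 on the minus strand and Mesp2 covers 79810727 to 79813431 on the plus strand, with 17.1 kb between the start sites. The 6 regions span 21.8 kb. The first, at chr7:79789249-79789649, lies beyond the 3′ end of Mesp1, with its midpoint 4.14 kb downstream of the Mesp1 start, and is called the downstream Mesp1 region here. The Mesp1 start region, at chr7:79793178-79793578, lies inside the gene and ends 12 bp short of its start site. The next 3 lie between the genes. The near upstream Mesp1 region, at chr7:79797169-79797569, and the far upstream Mesp1 region, at chr7:79798848-79799248, have midpoints 3.78 kb and 5.46 kb upstream of the Mesp1 start. The upstream Mesp2 region, at chr7:79802588-79802988, has its midpoint 7.94 kb upstream of the Mesp2 start. The Mesp2 start region, at chr7:79810677-79811077, covers the start site of that gene.

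The promoters are shown because each start region carries a result below and because they differ in exact matches to the T-box letters searched. Both are RefSeq sequences of build GRCm38.p6, the assembly that mm10 names, from 250 bases before to 50 bases after the start, written 5′ to 3′ along the gene's own strand. Capitals mark every match to the T-box motif AGGTGTGA or AGGTGTTA and to the ETS core GGAAG, each searched on both strands. The Mesp1 promoter is chr7:79793541-79793840, minus strand, and shares 38 bases with the Mesp1 start region. The Mesp2 promoter is chr7:79810477-79810776, plus strand, and shares 100 bases with the Mesp2 start region.
Mesp1 promoter: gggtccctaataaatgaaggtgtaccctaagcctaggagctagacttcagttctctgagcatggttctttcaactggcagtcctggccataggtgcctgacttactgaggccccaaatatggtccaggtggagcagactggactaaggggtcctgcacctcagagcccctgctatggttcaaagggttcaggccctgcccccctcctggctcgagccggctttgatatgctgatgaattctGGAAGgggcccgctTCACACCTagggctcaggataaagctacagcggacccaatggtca
Mesp2 promoter: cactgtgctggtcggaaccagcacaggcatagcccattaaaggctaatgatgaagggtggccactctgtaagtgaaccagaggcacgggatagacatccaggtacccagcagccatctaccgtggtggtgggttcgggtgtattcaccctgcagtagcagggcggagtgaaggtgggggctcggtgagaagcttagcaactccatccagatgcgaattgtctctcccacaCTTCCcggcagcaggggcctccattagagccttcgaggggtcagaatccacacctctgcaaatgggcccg
The Mesp1 promoter holds the T-box letters once, as TCACACCT, the reverse complement of AGGTGTGA, beginning 5 bases after the start site. Of 32851 promoters of the same length, 1.69% hold a T-box match, and the Mesp2 promoter holds no exact match. It does hold ccacacct, after its start site, which differs from TCACACCT only in the first letter. The difference between the promoters thus rests on the exact letters searched. Each promoter holds 1 ETS core, 9 bases before the start in Mesp1 and 20 bases before it in Mesp2, and 71.4% of promoters hold at least 1. Each holds 2 E-boxes (CANNTG, present in 72.3% of promoters), the kind of motif that basic helix-loop-helix factors bind. None of these matches overlaps another. Neither promoter holds the RBPJ letters TGGGAA (25.6% of promoters) or the GATA letters GATAAG (7.44%). A match describes the letters only, and the 4 regions away from the starts were not searched.

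Each library held 12477601 to 18853733 reads in regions, and the 6 regions held 845 to 4684 of them per library. Replicates differed by a chi-square of 1.15 to 1.22 per degree of freedom, except in OE SP with 4.38, and the OE SP libraries also differ at some of the regions described here. As a check of the genotype, the most open Etv2 region held 563 and 611 normalized reads for WT DP, with 475 and 493 for WT SP. It was at 425 and 645 in OE SP and at 0.840 and 0 in KO DP, and 2 of the 3 Etv2 regions fell in KO DP. The sort genes kept open regions in all groups, with 332.8 to 519 normalized reads summed over gene-end regions of Kdr (within 1 kb of either end) and 86.1 to 167 for Pdgfra.

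All values below are normalized reads, that is, reads per region divided by 1 factor per library as deposited. A region was called when its limma p, adjusted by the Benjamini-Hochberg method across the 167573 regions tested, was below 0.05, and log2 changes refer to log2(value + 5), given with their standard errors (SE). With 2 libraries per group, an exact permutation test of a single region cannot pass, and the test across all regions was used. WT DP serves as the reference of more than 1 comparison and so does WT SP, so their results are not independent of each other. These are bulk libraries, in which fewer cells with an open region and a less open region in each cell cannot be told apart.

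**Figure D1:**
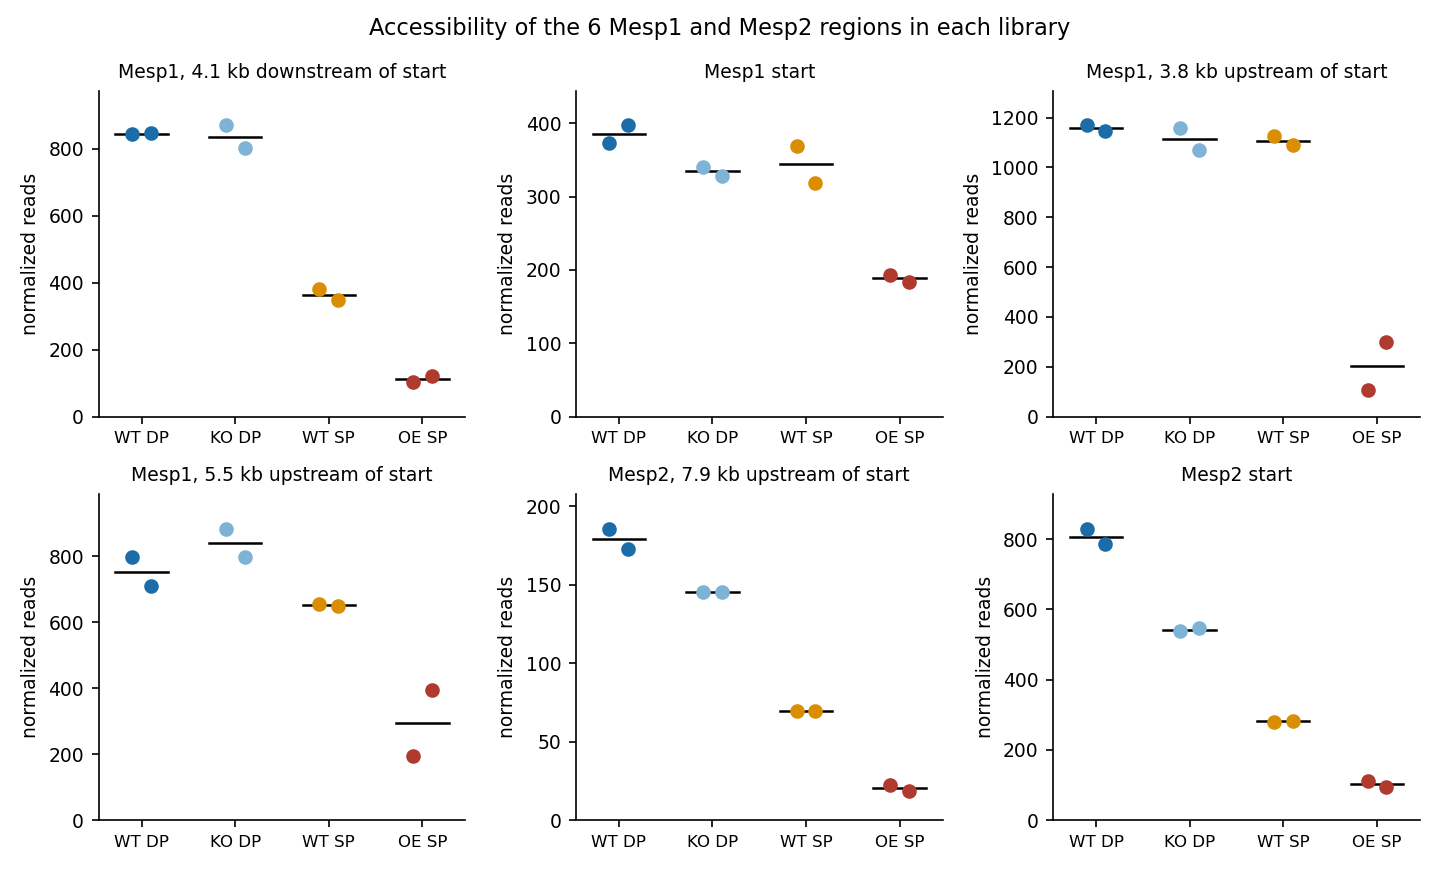
Normalized reads (y axis, from 0) of the 6 regions in WT DP, KO DP, WT SP and OE SP (x axis); each point is a library and each bar the mean of 2. In every panel the OE SP libraries are lowest, while WT SP lies near WT DP in 3 panels (Mesp1 start and both upstream Mesp1 regions) and well below it in the other 3.

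WT SP was set against WT DP to ask how the locus differs between FLK1+ cells without and with PDGFRalpha. The locus split. The downstream Mesp1 region and both Mesp2 regions fell in WT SP, by 2.32-fold to 2.86-fold, while the Mesp1 start and both upstream Mesp1 regions were not called.

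The Mesp2 start region measured 829 and 785 in WT DP, but 279.9 and 284 when PDGFRalpha was absent, in WT SP. The WT SP libraries lie far below both WT DP libraries, and the spread within each group is small beside the gap. This was a log2 change of -1.50 (SE 0.15, adjusted p = 0.000267). At the upstream Mesp2 region, WT DP stood at 185 and 172 while WT SP stood at 69.2 and 69.4, a log2 change of -1.31 (SE 0.19, adjusted p = 0.00120). It is the least open of the 6, and the groups again do not overlap. At the downstream Mesp1 region, WT DP stood at 844.5 and 846 while WT SP stood at 381 and 348, a log2 change of -1.20 (SE 0.15, adjusted p = 0.000610).

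The near upstream Mesp1 region, the most open of the 6, was not among them. WT DP stood at 1169 and 1146 there, and WT SP at 1126 and 1088. All 4 libraries lie close together, with a log2 change of -0.06 and a 95% interval of -0.77 to 0.65 (adjusted p = 0.916). The fit pools the spread of all groups, and the standard deviation here was 138 in OE SP, 16.0 in WT DP and 26.3 in WT SP. The interval is thus wider than the spread of the compared libraries. In a limma fit of only WT SP and WT DP the region was not called either (adjusted p = 0.481). At the Mesp1 start, WT DP stood at 373 and 397 and WT SP at 368 and 319, with a log2 change of -0.16 and an interval of -0.50 to 0.17 (adjusted p = 0.502). At the far upstream Mesp1 region, WT DP stood at 796 and 710.5 and WT SP at 656 and 649, with a log2 change of -0.20 and an interval of -0.74 to 0.34 (adjusted p = 0.616). The WT SP values of these 3 regions lie under both WT DP values, by little. At the other 3 they lie far under. Such a separation was found downward for 26.9% of all regions tested and upward for 40.5%. The intervals leave room for moderate change, but those of both upstream Mesp1 regions also carry the spread within OE SP. The far upstream region was called in a limma fit of only WT SP and WT DP, at the same log2 change of -0.20 (adjusted p = 0.0328). That fit called 37453 of all regions higher and 25969 lower, against 10395 and 13600 with all groups in the fit. The interval of the Mesp2 start region, -1.83 to -1.17, lies wholly below that of the Mesp1 start region, though the difference between the regions was not itself tested.

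In this comparison 3 of 6 regions were called, where 14.3% of all regions were, and all 3 were lower (8.12% of all regions lower, 6.20% higher). The number called higher was 0. At an unadjusted p below 0.05 limma likewise found 0 higher and 3 lower, and edgeR and DESeq2 called 0 higher. The median log2 change of the 6 was -0.70 against 0.11 for all regions. Those 3 calls were also made under each alternative run, and without any 1 of the 4 libraries. The scaling moved the balance over all regions, where 43.3% of calls were higher as deposited and 25.8% after rescaling on the 10000 highest regions, which shifted the median of all regions from 0.11 to -0.09.

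KO DP was set against WT DP to ask what differs at the locus in double positive cells of the Etv2 knockout line. Most of the locus lay close to wild type. The downstream Mesp1 region measured 869.9 and 801 in KO DP, around the 844.5 and 846 of WT DP. The near upstream Mesp1 region measured 1157 and 1069.6 in KO DP against 1169 and 1146. Their log2 changes were -0.02 and -0.06, with 95% intervals of -0.34 to 0.31 and -0.77 to 0.65, and both turned slightly above 0 under median-of-ratios rescaling (0.05 and 0.01). The interval of the near upstream region, like that of the far one, also carries the spread within OE SP, which the fit pools. In a limma fit of only KO DP and WT DP the near upstream region was not called either (adjusted p = 0.711). The far upstream Mesp1 region was the only one above wild type, at 882 and 799 against 796 and 710.5 (log2 change 0.16, interval -0.38 to 0.70, adjusted p = 0.781). Groups separated upward in 23.5% of all regions.

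The largest difference lay at the Mesp2 start region, which measured 537 and 547 in KO DP against 829 and 785 in WT DP. Both knockout libraries lie below both wild-type libraries, with a log2 change of -0.57 (SE 0.15, interval -0.90 to -0.24), but the adjusted p was 0.0615 and the region was not called. A limma fit of only KO DP and WT DP called 14903 regions higher and 21995 lower, against 2881 and 3696 with all groups. The Mesp2 start region was called in that fit (adjusted p = 1.93e-07), with a pseudocount of 20 (adjusted p = 0.0420) and with edgeR (adjusted p = 0.0337). Over all its alternatives the adjusted p ran up to 0.397, reached without WT DP replicate 1. The upstream Mesp2 region measured 145 and 145 against 185 and 172 (log2 change -0.29, adjusted p = 0.429), and the Mesp1 start region 341 and 328 against 373 and 397 (log2 change -0.20, adjusted p = 0.522). Groups separated downward in this way in 34.4% of all regions.

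With limma, 0 of 6 regions were called in either direction in KO DP, where 3.92% of all regions were called (1.72% higher and 2.21% lower). At an unadjusted p below 0.05, limma found 1 lower and 0 higher, edgeR called 1 lower and 0 higher, and DESeq2 called 0 in either direction. Of the calls over all regions, 43.8% were higher as deposited, 54.2% after rescaling on the 10000 highest regions and 56.5% with edgeR.

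OE SP was set against WT SP to ask how the locus differs in single positive cells of the line with induced Etv2. All 6 regions fell, among them the 3 not called in WT SP against WT DP. The falls of the group means ran from 1.82-fold at the Mesp1 start to 5.47-fold at the near upstream Mesp1 region, and their order depends on the OE SP library used, as given below.

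The near upstream Mesp1 region measured 105 and 299.6 in OE SP, against 1126 and 1088 in WT SP. Both induced libraries lie far below every other library, but they differ from each other, with replicate 1 the lower. The log2 change was -2.60 (SE 0.33, adjusted p = 6.65e-05). It was -1.87 without OE SP replicate 1 and -3.34 without OE SP replicate 2, called each time. The far upstream Mesp1 region behaved alike, with 194 and 394 in OE SP against 656 and 649. Its log2 change was -1.22 (SE 0.25, adjusted p = 0.00156), -0.72 without OE SP replicate 1 and -1.72 without OE SP replicate 2. The Mesp1 start region measured 193 and 184, against 368 and 319 in WT SP. It kept 54.9% of its WT SP level, with a log2 change of -0.85 (SE 0.15, adjusted p = 0.000753). This was the smallest change of the 6 with both OE SP libraries, but without OE SP replicate 1 it was -0.88, and the far upstream region changed least.

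The 3 regions already lower in WT SP were lower again. The Mesp2 start region measured 112 and 93.3 in OE SP against 279.9 and 284 (log2 change -1.42, SE 0.15, adjusted p = 2.66e-05). The upstream Mesp2 region measured 22.6 and 18.4 against 69.2 and 69.4 (log2 change -1.55, SE 0.19, adjusted p = 5.16e-05). For the downstream Mesp1 region the values were 104 and 121 against 381 and 348 (log2 change -1.66, SE 0.15, adjusted p = 1.03e-05). At these 3 regions the OE SP libraries lie close together, unlike at the upstream Mesp1 regions.

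The count of 6 of 6 lower stands beside 48.5% of all regions called, 31.9% lower and 16.6% higher, so falls were common in this comparison. Both OE SP values lay under both WT SP values at all 6 regions, as at 46.1% of all regions. By limma 0 were higher, also at an unadjusted p below 0.05, and edgeR and DESeq2 called 0 higher. The median log2 change of the 6 was -1.48 against -0.22 for all regions. Over all regions 27777 were higher and 53530 lower as deposited, and 39101 and 42482 after median-of-ratios rescaling, where the median over all regions was -0.00 in place of -0.22. All 6 regions were called lower under that rescaling too, and under every other alternative run.

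Set against WT DP, OE SP showed the whole range of the locus. All 6 regions were called lower, where 54.5% of all regions were called (33.2% lower and 21.3% higher), and the groups separated downward at all 6 and at 43.2% of all regions. The Mesp2 start region retained 12.7% of its WT DP level (log2 change -2.92, SE 0.15, adjusted p = 9.23e-08) and the upstream Mesp2 region 11.5% (log2 change -2.85, SE 0.19). Of its WT DP level, the downstream Mesp1 region retained 13.3% (log2 change -2.86, SE 0.15) and the near upstream Mesp1 region 17.5% (log2 change -2.67, SE 0.33). The far upstream Mesp1 region retained 39.0% (log2 change -1.43) and the Mesp1 start region 49.0% (log2 change -1.01). The values of both upstream Mesp1 regions turn on the OE SP libraries. Without OE SP replicate 1 the log2 change was -1.93 at the near and -0.92 at the far upstream region, and without OE SP replicate 2 it was -3.40 and -1.93. At 3 regions, the downstream Mesp1 region and both Mesp2 regions, the level thus stepped down from WT DP to WT SP to OE SP with a called difference at each step, while at the other 3 only the step to OE SP was called. KO DP was not called different from WT DP at any of the 6. Its mean was the nearest to that of WT DP at 5 of them, and at the Mesp1 start, where WT DP averaged 385, WT SP (344) lay nearer than KO DP (334).

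**Figure D2:**
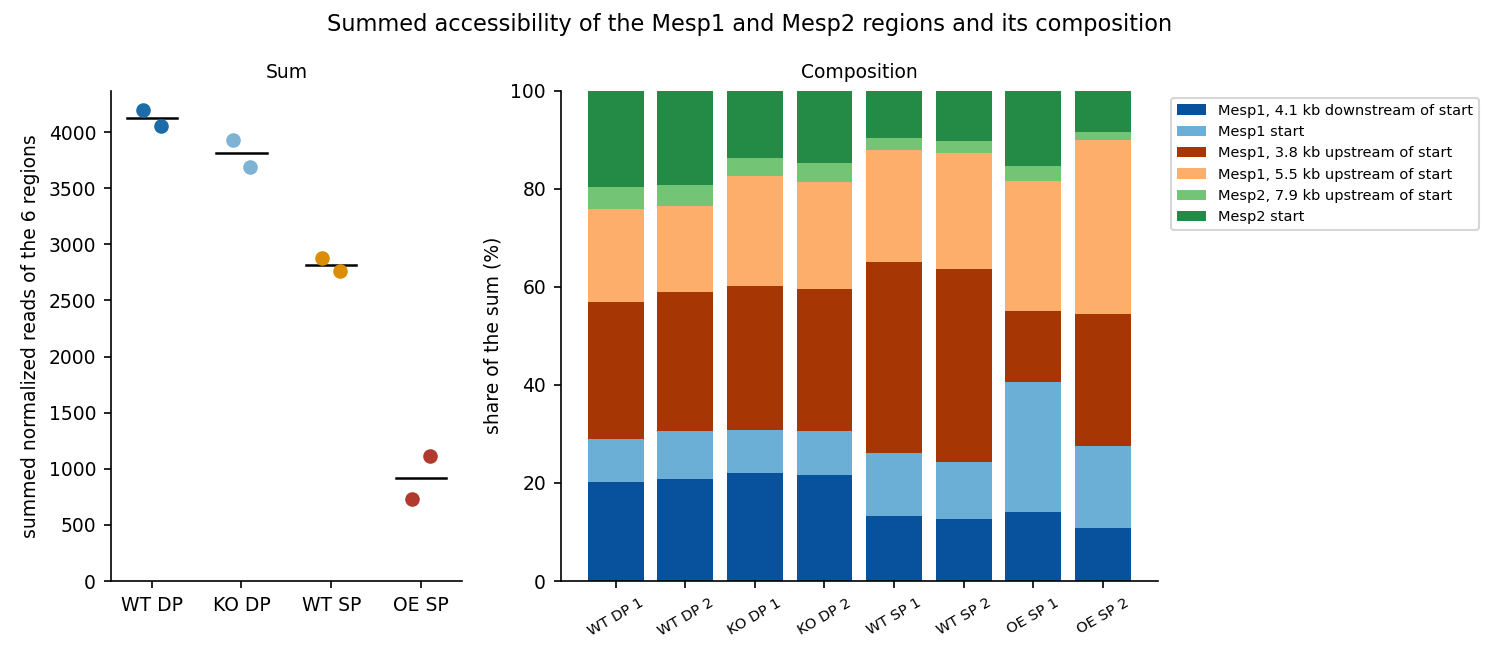
Left, summed normalized reads of the 6 regions per library (points) with group means (bars); right, the share of that sum held by each region in each library (%). The sum lies at 4057 to 4196 in WT DP and 731 to 1110 in OE SP, and the Mesp1 start takes a larger share in OE SP than in the other groups.

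Summed over the 6 regions, accessibility was 4127 ± 98.5 in WT DP, 3811 ± 172 in KO DP, 2819 ± 86.6 in WT SP and 921 ± 268 in OE SP (mean ± SD, n = 2). Ratios within a library do not depend on its scaling factor. The Mesp2 start region stood at 0.709 and 0.685 of the near upstream Mesp1 region in WT DP, 0.464 and 0.511 in KO DP, and 0.249 and 0.260 in the WT SP libraries. The ratio thus differed between these 3 groups with no overlap. In OE SP it was 1.07 and 0.311, and the libraries there differed. The ratio of the Mesp1 start to the Mesp2 start was 0.450 and 0.506 in WT DP, 0.634 and 0.600 in KO DP, 1.32 and 1.13 in WT SP, and 1.72 and 1.97 in OE SP. The balance between the gene starts therefore leaned to Mesp2 in double positive cells and to Mesp1 in single positive cells, with no overlap among the 4 groups. These ratios are descriptions of 2 libraries per group and were not tested.

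Regions just outside the rule's edge were also lower in some comparisons. The region downstream of Mesp1 was included because its midpoint lies 2792 bp from Mesp1 and 3497 bp from Wdr93. The next region on that side, at chr7:79787554-79787954, lies 1802 bp from Wdr93 and 4487 bp from Mesp1 and so falls outside. Its values were 135 and 143 for WT DP, 169.6 and 143 for KO DP, 90.6 and 83.3 for WT SP, and 19.0 and 22.3 for OE SP. On the other side, the region at chr7:79818318-79818718 lies 3285 bp from Anpep and 5087 bp from Mesp2. It measured 181 and 189 in WT DP, 222 and 255.5 in KO DP, 92.6 and 90.2 in WT SP, and 68.6 and 82.8 in OE SP. Both outer regions were called lower in WT SP (log2 changes -0.65 and -0.98, adjusted p = 0.0417 and 0.00429), but neither with any 1 of the 4 libraries left out, whether from WT DP or WT SP (adjusted p = 0.159 and 0.0510 at the lowest). The region beside Wdr93 fell again in OE SP (log2 change -1.84, adjusted p = 2.11e-05).

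**Figure D3:**
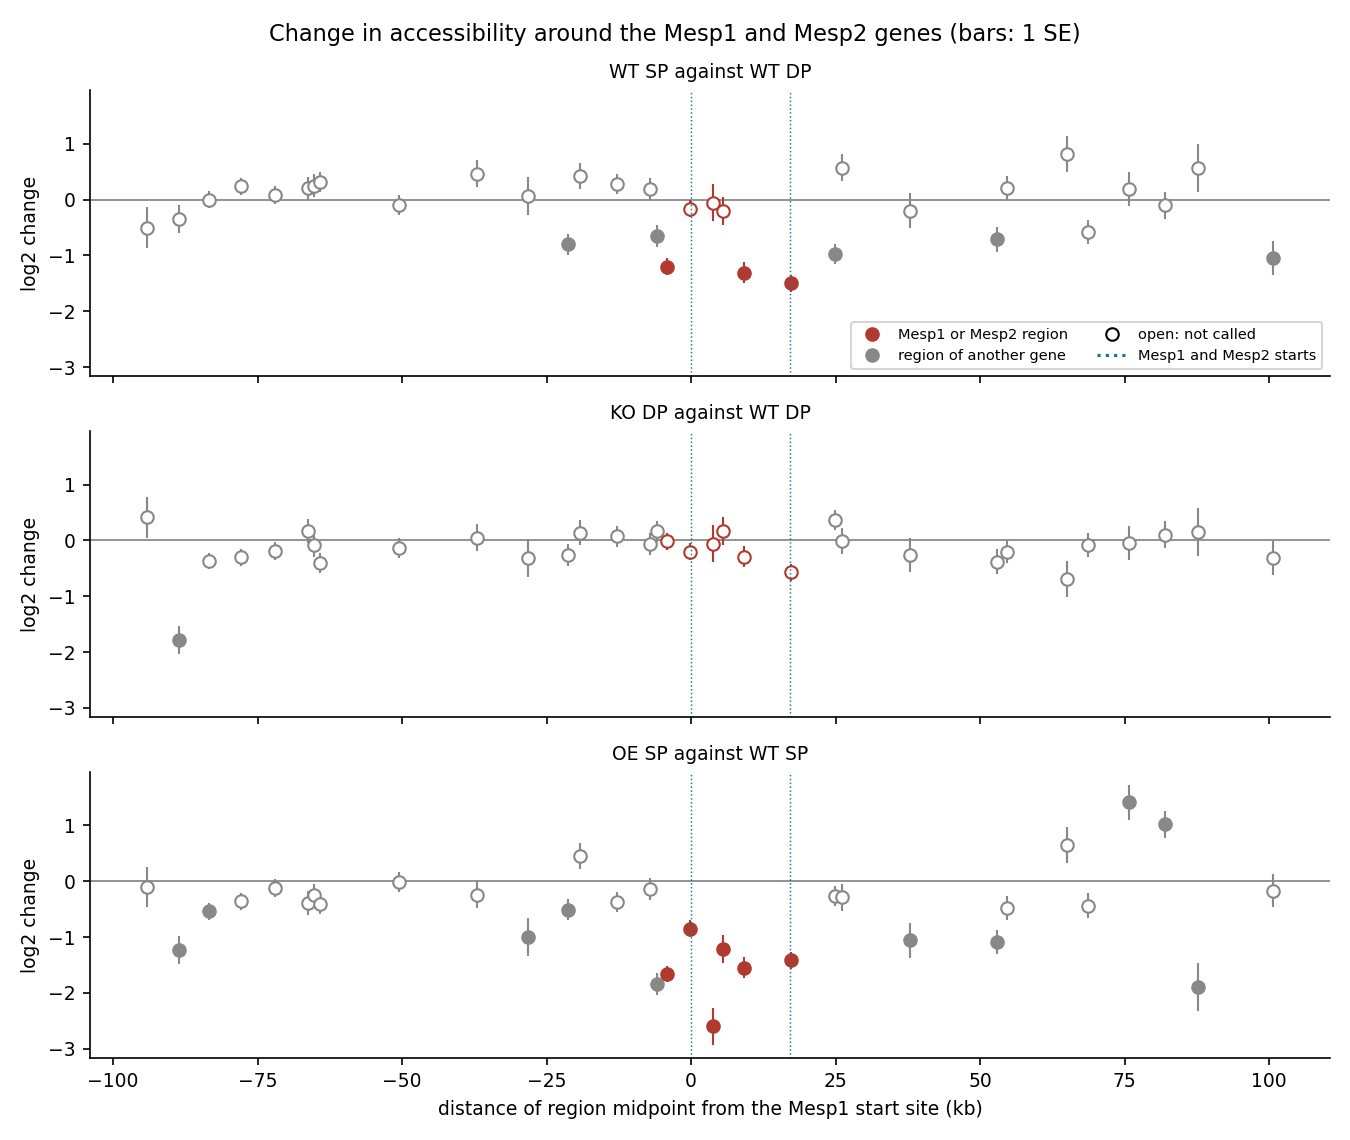
Log2 change with 1 SE (y axis) of each region against the distance of its midpoint from the Mesp1 start (x axis, kb) in 3 comparisons; red points are the 6 Mesp1 and Mesp2 regions, grey points regions of other genes, filled points called. The 6 red points are all filled and below 0 in the lowest panel, and 3 of them are filled in the top panel.

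Within 100 kb of the outer ends of the genes, 27 regions belong to other genes. In WT SP against WT DP, limma called 5 of these 27 lower, where 8.12% of all regions were lower, but 0 when any 1 of the WT DP or WT SP libraries was left out. The count was 2 with DESeq2 and 3 with the replicate block. In KO DP, 1 fell, a region in Kif7 that measured 51.3 ± 0.178 in WT DP and 11.5 ± 2.78 in KO DP (mean ± SD, n = 2), and was not called without KO DP replicate 2 (adjusted p = 0.0647). In OE SP against WT SP, 8 of the 27 fell and 2 rose, with a median log2 change of -0.36. The Kif7 region that was lower in KO DP was among these falls, at 33.6 and 46.6 in WT SP and 14.6 and 13.1 in OE SP. Over all regions 31.9% were lower and 16.6% higher, and the share of falls among these neighbours lay near that background. The falls were fewer without WT SP replicate 1 and more numerous without OE SP replicate 2, as they were over all regions. After median-of-ratios rescaling 5 fell and 4 rose, where 42482 of all 167573 regions fell and 39101 rose. Both rises found without rescaling lay by Ap3s2, an adaptor complex subunit gene, at chr7:79869085-79869485 (log2 change 1.41) and chr7:79875392-79875792 (1.02). The other Ap3s2 region named here, at chr7:79881001-79881401, measured 349 and 353 in WT SP and 43.8 and 185 in OE SP, with the same replicate again the lower.

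Genes that act with Mesp1 and Mesp2 were followed as 3 lists, by the regions nearest to each gene. In WT SP against WT DP, the list of 11 regulators of Mesp genes had 25 of 176 regions lower (14.2%) and 12 higher (6.82%). The list of 13 genes that Mesp1 activates or that act in its cardiac programme had 21 of 208 regions lower (10.1%) and 6 higher (2.88%). The list of 8 segmentation genes had 12 of 95 lower (12.6%) and 3 higher (3.16%). Over all regions, 8.12% were lower and 6.20% higher, so the regulators' share of higher calls lay near the background. The median log2 changes of the lists were -0.08, 0.03 and 0.01, against 0.11 for all regions. By gene, 5 regulators had lower calls only, 4 had calls in both directions and 1 had higher calls only. In the Mesp1 programme 6 genes had lower calls only and 3 had both. Of the segmentation genes 3 had lower calls only and 3 had both. These counts need all the libraries. On leaving out, in this order, replicate 1 or replicate 2 of WT DP and then replicate 1 or replicate 2 of WT SP, the lower calls numbered 12, 9, 12 and 12 for the regulators, 10, 12, 10 and 15 for the Mesp1 programme and 5, 5, 7 and 6 for the segmentation genes. The higher calls dropped to 3 or 4, to 0 or 1, and to 0 or 1. Over all regions, lower calls likewise dropped from 13600 to 3988, 3503, 4168 and 5034.

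Each region named from the lists was chosen for the lowest adjusted p of its gene in WT SP against WT DP. A change in that comparison was thus built into the choice, also where it resembles that of a Mesp2 region. Among the regulators, a region in Notch1, the receptor whose signalling acts on Mesp2, measured 583 and 595.5 in WT DP, 369 and 364 in KO DP, 171 and 171.5 in WT SP, and 63.5 and 70.9 in OE SP. It fell in WT SP (log2 change -1.75), fell again in OE SP (-1.29) and was also called lower in KO DP (-0.68, adjusted p = 0.0322). The KO DP call was lost without any 1 of the WT DP or KO DP libraries (adjusted p = 0.177 to 0.279), with DESeq2 and with the replicate block (adjusted p = 0.0538). A region in Tbx6, which encodes the T-box factor that acts on Mesp2, measured 669.8 and 640.4 in WT DP, 744 and 601 in KO DP, 224 and 234 in WT SP, and 81.7 and 80.1 in OE SP. Its log2 changes of -1.50 in WT SP and -1.44 in OE SP stand beside -1.50 and -1.42 at the Mesp2 start. A region in Lef1, a nuclear effector of Wnt signalling, fell at both steps (-1.93 and -1.87). A region by the Notch ligand gene Dll1 fell in WT SP from 46.6 and 50.3 to 6.11 and 2.97, and measured 4.38 and 2.63 in OE SP.

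In the Mesp1 programme, a region near Foxc1, a forkhead factor of early mesoderm, stood at 492 and 513 for WT DP, 343 and 314 for KO DP, 145 and 162 for WT SP, and 23.3 and 25.0 for OE SP. It fell at both steps (-1.68 and -2.44). A region in Aldh1a2, which encodes a retinoic acid synthesis enzyme, fell at both steps (-2.00 and -2.06), as did a region near Hand2, a factor of the heart fields (-1.14 and -0.95). A region near Snai1, a driver of the epithelial to mesenchymal transition, fell in WT SP (-1.67). In OE SP its fall of -0.64 (adjusted p = 0.0106) was not called with edgeR (adjusted p = 0.0745), with DESeq2, without WT SP replicate 1 or in a fit of only OE SP and WT SP. Among the segmentation genes, a region by Ripply1, a repressor that acts with Mesp2 at the somite boundary, stood at 496 and 504 for WT DP, 471 and 450.4 for KO DP, 199 and 219 for WT SP, and 46.7 and 49.9 for OE SP (-1.24 and -2.01). A region in Epha4, an ephrin receptor gene and Mesp2 target, fell in WT SP (-2.14), and so did a region near Ripply2 (-1.31). A region near Lfng, which encodes a modifier of Notch receptors, was called lower in WT SP (94.7 and 105.1 against 213 and 198, adjusted p = 0.00663), but without any 1 of these 4 libraries it was not called (adjusted p = 0.0509 to 0.0835).

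In OE SP against WT SP, 89 of 176 regions of the regulators were lower (50.6%) and 15 higher, 117 of 208 in the Mesp1 programme were lower (56.3%) and 16 higher, and 39 of 95 of the segmentation genes were lower (41.1%) and 10 higher. All regions stood at 31.9% lower and 16.6% higher. With DESeq2 the lower calls dropped to 59, 75 and 16, and over all 167573 regions they dropped from 53530 to 28778. Those of the segmentation genes also dropped without WT SP replicate 2, as did those over all regions. In KO DP against WT DP, the regulators had 8 regions lower (4.55%) and 2 higher, the Mesp1 programme 9 lower (4.33%) and 3 higher, and the segmentation genes 2 lower (2.11%) and 2 higher. All regions stood at 2.21% lower and 1.72% higher there, so the segmentation genes lay at the background. On leaving out any library of that comparison, WT DP or KO DP, the lower calls dropped to 0, 1 and 0 and the higher calls to 0 in each list.

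**Figure D4:**
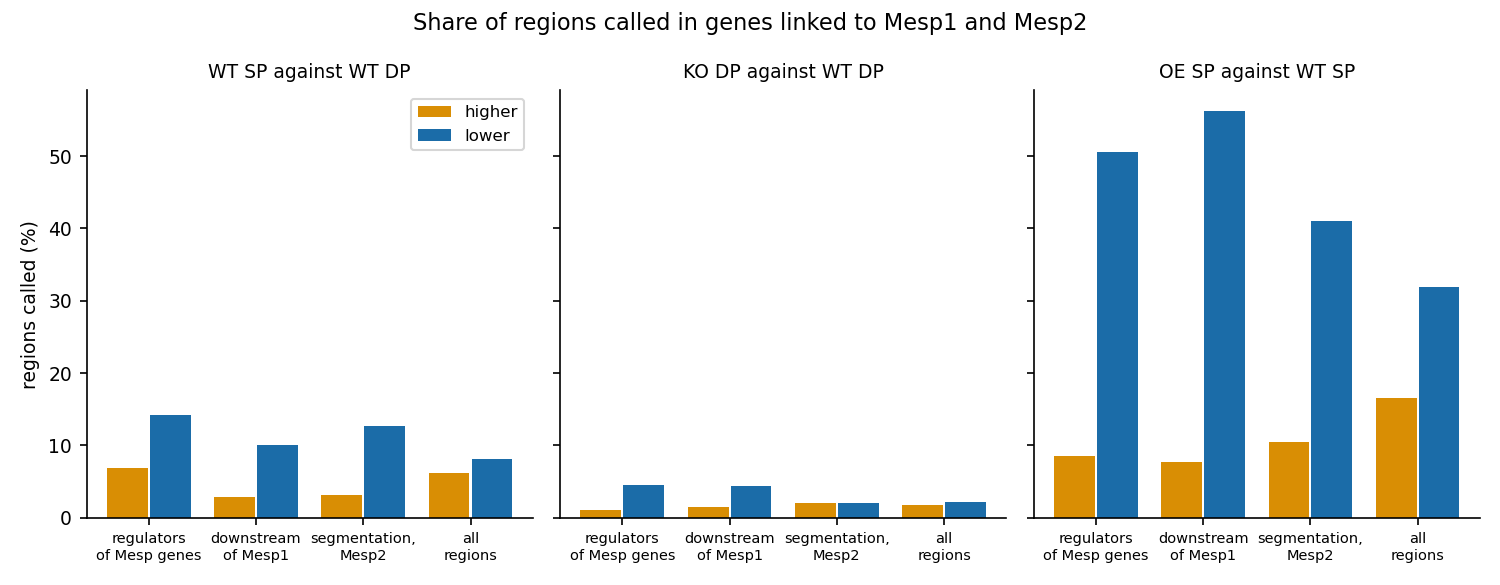
Percent of tested regions called higher or lower by limma (y axis) for the regulators of Mesp genes, the genes downstream of Mesp1, the segmentation genes and all regions (x axis) in 3 comparisons. Lower calls reach 56.3% for the genes downstream of Mesp1 in OE SP, beside 31.9% for all regions.

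Markers of several lineages also differed between these groups. Tbx6 and Msgn1 are also on the list of regulators, and Hand1 and Nkx2-5 on that of the Mesp1 programme. Summed over gene-end regions, the 4 endothelial markers (Cdh5, Pecam1, Tek and Tie1) measured 207 to 218 in WT DP, 172 to 181 in KO DP, 449.9 to 457 in WT SP and 1695 to 2867 in OE SP. Of their 80 regions, 26 were higher and 15 lower in OE SP against WT SP, where 16.6% of all regions were higher and 31.9% lower. Of the 4 blood markers (Gata1, Tal1, Itga2b and Ptprc), 2 had gene-end regions, which summed to 294 to 302 in WT DP, 212 to 220.0 in KO DP, 558 to 604 in WT SP and 1009.6 to 1391 in OE SP. The 4 paraxial mesoderm markers (Tbx6, Msgn1, Meox1 and Tcf15) ran the other way, with 1313 to 1371 in WT DP, 1058 to 1193 in KO DP, 869 to 894 in WT SP and 598 to 615 in OE SP. The 4 cardiac mesoderm markers (Nkx2-5, Tbx5, Hand1 and Tnnt2) measured 1487 to 1568 in WT DP, 1751 to 1771 in KO DP, 1782 to 1893 in WT SP and 607 to 1168 in OE SP. Pluripotency markers (2 of 3 genes with such a region) measured 243 to 333 over all libraries. The 2 endoderm markers (Foxa2 and Sox17) measured 431 to 458 in WT DP, 318 to 351 in KO DP, 451 to 528 in WT SP and 746 to 858 in OE SP. By calls in OE SP against WT SP, the blood markers had 12 of 23 regions higher and 4 lower. Paraxial mesoderm had 6 of 31 higher and 12 lower, near the shares of all regions, and cardiac mesoderm 5 of 78 higher and 45 lower. Pluripotency had 6 of 40 higher and 12 lower, and endoderm 9 of 39 higher and 10 lower. Every marker gene with a gene-end region had reads there in each library. Their part in the changes at Mesp1 and Mesp2 was not tested.

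The gene-end regions elsewhere with the most similar patterns are named next. Likeness was measured as the root mean square difference of log2(value + 5) over the 8 libraries, each region centred on its own mean, among 17228 gene-end regions outside 1 Mb of the locus. Closest to the Mesp1 start were regions of Slc5a7, a choline transporter gene (0.068), Mfsd2b (0.089), Thy1 (0.092), Tgm7 (0.092) and Gpr50 (0.094), where the median candidate stood at 0.48. The Slc5a7 region measured 214 and 224 in WT DP, 209.9 and 197 in KO DP, 203 and 176 in WT SP, and 111 and 116 in OE SP. Closest to the Mesp2 start were regions of Psg19 (0.115), Lman2l (0.177), Prr5 (0.186), Nat8 (0.188) and Dip2a (0.192), with a median candidate at 1.19. The Dip2a region measured 499.9 and 469 in WT DP, 474 and 405 in KO DP, 226 and 227 in WT SP, and 72.2 and 64.4 in OE SP. None of the 5 regions closest to the Mesp1 start is among the 5 closest to the Mesp2 start. This follows from how far apart the patterns of the starts lie and is no separate result.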

How the data were processed

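ATAC-seq was made from 50000 sorted live cells per library with the Omni-ATAC procedure and read as paired ends of 75 bp, per the labels' protocols. Bowtie2, MACS2 and DiffBind 3.14.1 with mm10 are named in the submitters' processing notes, without their roles. The deposited signal is reads per region divided by 1 factor per library. The sources used here do not say how the factors were set or peaks called, or if Tn5 cut sites were shifted or duplicates removed. A factor that follows reads in peaks moves the balance of rises and falls. Within 0.01 reads, 100% of values were multiples of what 1 read is worth in the library, so whole reads were recovered.

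Regions were assigned by midpoint to protein-coding spans of the RefSeq GRCm38.p6 table, which gave a gene to 150761 regions (89.3%). limma 3.58.1 in R 4.3.3 was fitted to log2(value + 5) of 167573 regions (99.2%) with 4 group means, an empirical Bayes trend, 4 residual and 8.15 prior degrees of freedom, and was tested on simulated data. Tests are two-sided. Alternatives were other pseudocounts, scalings and filters, edgeR 4.0.16 and DESeq2 1.42.0 on recovered reads, a replicate block, and leaving out each library, where the lone library of a group is assumed to vary like the other groups. The members, lists and markers were chosen with earlier results of these data known. The rule for named genes took all member regions, the 4 genes per list with the lowest adjusted p in WT SP against WT DP, and the 5 nearest patterns per gene start. Promoter sequences came from RefSeq, where both genes matched by symbol. Motifs were searched in promoters only, since no genome was used here.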

Additional observations from a re-analysis of the deposited data

How the results depend on the processing

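The numbers of Mesp1 and Mesp2 regions called lower in WT SP against WT DP (3), in OE SP against WT SP (6) and in OE SP against WT DP (6), and the 0 called higher in these, were the same under each alternative run: pseudocounts of 1 and 20, no filter, 3 other scalings, the compared groups alone, the replicate block, edgeR, DESeq2, each library left out, and members within 10 kb, except that 4 were lower in WT SP when only the compared groups were in the fit. In KO DP against WT DP the number called lower rose from 0 to 1, the Mesp2 start region, with a pseudocount of 20 (1), the compared groups alone (1) and edgeR (1), and was 0 otherwise. The cause was not tested. With the compared groups alone, calls over all regions rose too, in WT SP against WT DP to 37453 higher and 25969 lower. In KO DP against WT DP they rose to 14903 higher and 21995 lower. Limiting members to 10 kb kept the same 6 regions, since the farthest midpoint lies 7.94 kb from its gene. The counts under that setting were therefore fixed in advance. Changes near 0 turned sign without a call. The downstream Mesp1 region in KO DP stood at 0.05 after median-of-ratios rescaling, 0.03 after quantile normalization, 0.06 after rescaling on the 10000 highest regions, 0.04 and -0.08 without KO DP replicate 2 and 1, 0.06 with edgeR and 0.05 with DESeq2. The near upstream Mesp1 region there stood at 0.01, 0.02, 0.03 and 0.01 with median-of-ratios, the 10000 highest regions, edgeR and DESeq2. In OE SP against WT SP, the Dll1 region stood at 0.17 after quantile normalization and 0.08 to -0.39 on leaving out a library, and the Epha4 region at -0.00 with a pseudocount of 20, -0.22 without WT SP replicate 1, -0.03 without OE SP replicate 1 and up to 0.24 on leaving out another library.

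Same-numbered libraries did not deviate together (correlation of deviations -0.004 to 0.056 over the 6 pairs of groups). The numbers follow the sample titles, while the library names of KO DP carry 3 and 4 instead. Whether same-numbered libraries share a culture or batch was not tested. With the replicate block the members called lower numbered 3, 0, 6 and 6 in the 4 comparisons, as without it. Depth limits the upstream Mesp2 region in OE SP most, and 2 libraries per group limit all intervals.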
